A study of Rattus norvegicus with 30 samples.

Results

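*Chi3l1* (ENSRNOG00000053272) was followed across all 30 libraries as 1 gene of the 32545 in the count table. It was chosen by its change on high salt: it was the 1 gene called raised against LS in both tissues and at both times. Those 4 comparisons therefore describe *Chi3l1* here and do not test it, and tests are given for what did not choose it. The libraries came from male Sprague-Dawley rats, an outbred strain without inherited hypertension, whose ages are not given for these tissues. All rats ate a purified AIN-76A diet. The LS rats stayed on 0.4% NaCl, the HS14 rats had 4.0% NaCl for 14 d and the HS21 rats had it for 21 d. Kidneys were divided into cortex (Cx) and outer medulla (OM), and each tissue gave 5 libraries per diet group. The labels number the libraries 1 to 5 (LS), 6 to 10 (HS14) and 11 to 15 (HS21) in each tissue, and they do not say whether equal numbers are the same rat.

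*Chi3l1* encodes chitinase-3-like protein 1, also known as YKL-40 or BRP-39. The secreted glycoprotein folds like a chitinase and binds chitin, but it lacks the residues that cut it. It is made by activated macrophages, neutrophils and injured epithelium. In the kidney it is known as a protein that appears in urine after acute tubular injury and as a signal in the repair that follows. In the build of the files (Rnor_6.0) the gene lies on the + strand at chr13:51022681-51030802 and is annotated as protein coding, with 1829 bases of exon in the authors' gene length.

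Because cytokine signals are known to raise *Chi3l1*, the 250 bases before its annotated start are shown with the sites that were searched in them (RefSeq, GRCr8, chr13:48193589-48193838, + strand, 5′ to 3′; capitals mark matches to the C/EBP pattern).
*Chi3l1* upstream: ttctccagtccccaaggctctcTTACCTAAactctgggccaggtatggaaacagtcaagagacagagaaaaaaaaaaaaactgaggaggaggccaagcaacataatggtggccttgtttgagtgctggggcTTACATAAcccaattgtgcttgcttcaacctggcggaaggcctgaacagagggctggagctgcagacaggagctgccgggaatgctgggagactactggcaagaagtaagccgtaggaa
The C/EBP pattern, TTNNGNAA on either strand, matched 2 times, beginning 228 and 119 bases before the start, and 37.2% of the 33469 upstream windows in the same table held at least 1 match. No match was found in these letters to TTCNNNGAA (STAT, in 7.67% of windows), the NF-kB consensus (1.30%) or TGANTCA (AP-1, 6.34%). A match is a run of letters and not a measured binding site.

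On LS, *Chi3l1* was close to the limit of what these libraries count. In Cx LS the 5 libraries held 11, 7, 6, 18 and 14 counts of the gene, or 0.839, 0.543, 0.457, 1.31 and 0.898 CPM (counts relative to the library total, scaled by TMM over the 30 libraries). In OM LS there were 18, 5, 15, 11 and 17 counts, or 1.10, 0.420, 0.951, 0.694 and 1.15 CPM. The 2 ranges overlapped, and replicate 2 of OM LS was the lowest of all 30 libraries.

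After 14 d of high salt every library stood above every LS library of its tissue. The Cx HS14 libraries held 3.56, 6.43, 2.99, 5.44 and 2.77 CPM (replicates 6 to 10). The OM HS14 libraries held 4.29, 8.29, 4.93, 6.48 and 4.99 CPM. Replicates 7 and 9 had the highest values in both tissues. The lowest high-salt value was 2.11 times the highest LS value in the Cx and 3.72 times in the OM.

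After 21 d the values were 7.40, 10.6, 5.15, 9.73 and 15.1 CPM in the Cx (replicates 11 to 15) and 9.32, 11.4, 4.78, 13.6 and 9.56 CPM in the OM. Replicate 13 was the lowest in both tissues and lay within the range of the HS14 libraries, and the other 4 libraries of each tissue lay above all HS14 libraries of that tissue. The lowest HS21 value was 3.93 times the highest LS value in the Cx and 4.14 times in the OM. Fully separated groups of this kind, with all high-salt libraries above all LS libraries, were seen for 3.06% of tested genes in Cx HS14, 12.6% in Cx HS21, 1.05% in OM HS14 and 2.64% in OM HS21, and nothing is read from this for a gene chosen on these contrasts.

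**Figure D1:**
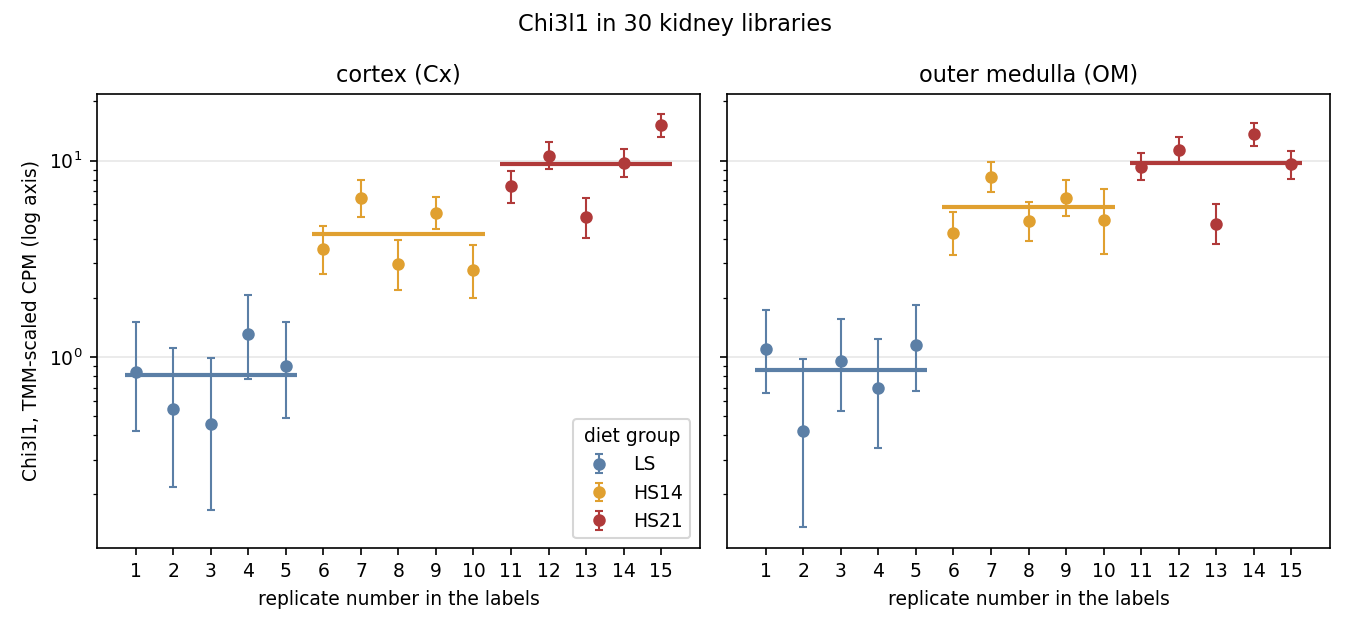
*Chi3l1* in CPM (log axis) in each library, by the replicate number in the labels, for Cx and OM. Points are libraries with exact Poisson 95% intervals of the count, horizontal lines are group means, and the HS14 and HS21 points lie above every LS point of the same tissue, from 2.77 to 15.1 against 0.420 to 1.31 CPM.

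The group means rose in the order Cx LS (0.810 ± 0.338 CPM, SD, n = 5), OM LS (0.864 ± 0.306), Cx HS14 (4.24 ± 1.62), OM HS14 (5.80 ± 1.61), Cx HS21 (9.60 ± 3.74) and OM HS21 (9.73 ± 3.26). Neighbours in this order overlapped in range, except OM LS and Cx HS14. The coefficient of variation between libraries was 27.7% to 41.7%, against 8.05% to 29.9% from counting alone, so that on LS much of the spread is of the size of the counting error. Per gene length, the mean was 0.444 FPKM in Cx LS, 2.29 in Cx HS14 and 5.20 in Cx HS21, and 0.466, 3.13 and 5.18 FPKM in the OM. This level exceeded that of 21.9% of the detected protein-coding genes in Cx LS and of 47.6% in Cx HS21, and of 21.97% and 47.7% in the OM. *Chi3l1* thus went from among the weakly transcribed genes to near the middle.

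As log2 ratios to LS, these levels were 2.35 (SE 0.33) in Cx HS14, 3.53 (SE 0.34) in Cx HS21, 2.72 (SE 0.31) in OM HS14 and 3.45 (SE 0.34) in OM HS21. By size of the ratio the gene was the 7th of 14181 tested genes in Cx HS14, the 11th of 14299 in Cx HS21, the 11th of 14417 in OM HS14 and the 4th of 14555 in OM HS21. For scale, edgeR's quasi-likelihood test called 1.14% of genes raised and 1.18% lowered in Cx HS14, 18.9% and 20.5% in Cx HS21, and 0.639% and 0.131% in OM HS21 (adjusted *P* under 0.05). In Cx HS21 scaling by total counts in place of TMM moved the median log2 ratio of all genes to 0.13 and gave 4401 raised and 1653 lowered genes in place of 2702 and 2936, while *Chi3l1* stayed between 3.53 and 3.66 under the alternatives that kept all libraries. In OM HS14 0.00694% were raised, which is *Chi3l1* alone, and 0% were lowered. There 826 genes had an unadjusted *P* under 0.05, and DESeq2 called 90 raised and 19 lowered.

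Its place as the gene shared by all 4 comparisons was thus decided in OM HS14, where it lay just inside the threshold with an adjusted *P* of 0.0462 in edgeR. Genes just outside, tied at 0.125, included *C7*, a complement component with a log2 ratio of 1.58 (SE 0.23), *Entpd2*, an ectonucleotidase with a log2 ratio of −0.998 (SE 0.15), and *Spn*, the leukocyte surface protein CD43 (1.35, SE 0.20). When 1 of the 10 libraries was left out, 9 of 10 fits called no gene raised there, and the fit without OM HS14 replicate 10 called 4. The log2 ratio of *Chi3l1* itself ranged from 2.56 (without OM LS replicate 2) to 2.83 (without OM LS replicate 5).

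Whether the level went on rising between 14 and 21 d was tested on the high-salt libraries. All of these had also entered the comparisons with LS, so the test is not independent of the choice of *Chi3l1*. In the Cx, *Chi3l1* rose from HS14 to HS21 by a log2 ratio of 1.18 (SE 0.31, 95% interval 0.51 to 1.86, edgeR adjusted *P* = 0.0267), where 6.5% of tested genes rose (935, against 1395 that fell, or 2084 and 644 with scaling by total counts). The exact permutation test of the log2 CPM gave *P* = 0.0238 (two-sided), and 4 of 5 HS21 libraries lay above all HS14 libraries. The call was lost, with an adjusted *P* up to 0.0714, when HS14 replicate 6 (log2 ratio 1.12) or 8 (1.07), or HS21 replicate 12 (1.15), 14 (1.18) or 15 (0.96) was left out. In the OM, the log2 ratio of HS21 to HS14 was 0.73 (SE 0.28, 95% interval 0.10 to 1.35), with an edgeR adjusted *P* of 0.961 and an unadjusted *P* of 0.0266. The exact permutation test gave *P* = 0.0556, and again 4 of 5 HS21 libraries lay above all HS14 libraries. In that comparison 0% of genes were called raised by edgeR, 547 had an unadjusted *P* under 0.05 and DESeq2 called 17 raised and 10 lowered.

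No difference in *Chi3l1* between the tissues passed the test at any diet. The log2 ratio of OM to Cx was 0.091 at LS (SE 0.34, 95% interval −0.67 to 0.86, edgeR adjusted *P* = 0.856). It was 0.46 at HS14 (SE 0.29, interval −0.17 to 1.09, edgeR adjusted *P* = 0.278) and 0.038 at HS21 (SE 0.31, interval −0.65 to 0.73, edgeR adjusted *P* = 0.944). The intervals reach a difference of about a log2 unit at HS14, so the levels are not shown to be equal. These tests took the libraries of the 2 tissues as separate samples. At HS14 each OM library lay above the Cx library of equal number, while at LS and HS21 the order was mixed. A fit with the replicate number as a block is given in the closing section. The 2 tissues differed in many other genes. OM was higher than Cx for 21.3% of tested genes at LS, 15.7% at HS14 and 17.3% at HS21, and lower for 19.5%, 13% and 14.5%. Scaling by total counts turned these calls to 5546 higher and 1842 lower at LS, 3587 and 1403 at HS14, and 3660 and 1693 at HS21, and moved the median log2 ratio of all genes at LS from 0.029 to 0.27.

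The difference between the tissues in the rise itself is given as a description, since the gene was chosen for a rise in both. The tissue by diet interaction (the OM change minus the Cx change) was 0.34 at HS14 (SE 0.45, 95% interval −0.61 to 1.29) and −0.093 at HS21 (SE 0.48, interval −1.11 to 0.92). Over all genes edgeR's test found that 0% of genes differed at HS14, with 559 at an unadjusted *P* under 0.05 and 7 higher and 2 lower by DESeq2, and 0.665% at HS21 (68 higher and 33 lower, or 57 and 54 with scaling by total counts, and 729 and 546 without OM LS replicate 2).

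None of the measured relatives of *Chi3l1* rose. *Chit1*, the active chitinase whose gene lies beside it, was measured at 1.97 ± 0.345 CPM in Cx LS and 1.93 ± 0.549 in Cx HS21, and at 2.19 ± 0.735 in OM LS and 1.95 ± 0.363 in OM HS21 (SD, n = 5). Its log2 ratios to LS were −0.30 to 0.03 in the 4 comparisons, none past the test. Per gene length *Chit1* stood above *Chi3l1* in Cx LS (0.859 against 0.444 FPKM) and below it in Cx HS21 (0.828 against 5.20 FPKM). *Ctbs*, the lysosomal di-N-acetylchitobiase, fell in Cx HS21 by 0.45 on the log2 scale (SE 0.06, edgeR adjusted *P* = 0.000139), from 59.0 ± 2.84 to 43.7 ± 2.68 CPM, and passed the test in no other comparison with LS. *Chia* and *Chi3l3* had no count in any library, and *Chid1* had 3 counts in all 30.

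Of the receptors and binding partners of the protein, some were scarcely counted and others were present on LS. *Il13ra2*, the IL-13 receptor chain to which it binds, had 21 counts in all 30 libraries, and *Ptgdr2*, another receptor named for it, had 65. *Tmem219*, the co-receptor of *Il13ra2*, was at 22.001 ± 2.20 CPM in Cx LS and 21.1 ± 2.37 in Cx HS21 (log2 ratio −0.077, SE 0.098), and *Sdc1*, the heparan sulfate proteoglycan syndecan-1, at 20.8 ± 2.50 and 22.3 ± 2.45 CPM (log2 ratio 0.089, SE 0.099). Neither passed the test. Of 5 tested receptor and partner genes, 3 rose in Cx HS21, where 18.9% of all genes did. None rose in the other comparisons with LS, where 1.14% or fewer of all genes did. *Cd44*, the hyaluronan receptor, rose from 8.46 ± 2.57 to 28.0 ± 11.02 CPM (log2 ratio 1.71, SE 0.29, edgeR adjusted *P* = 0.000799). *Lgals3*, galectin-3, rose by 1.07 (SE 0.23, adjusted *P* = 0.00321), and *Ager*, the RAGE receptor, by 0.67 (SE 0.19, adjusted *P* = 0.0141). In OM HS21 the log2 ratios of these 3 genes were 0.72 (SE 0.34), 0.22 (SE 0.37) and −0.029 (SE 0.28), and none passed the test. On LS the same 3 genes were called higher in OM than in Cx, and *Sdc1* lower. Of all tested genes 21.3% were higher and 19.5% lower there. The part of tissue make-up in the Cx HS21 rises of *Cd44*, *Lgals3* and *Ager* was not tested.

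Among cytokines and signal genes known to act on *Chi3l1*, 3 of 9 tested rose in Cx HS14 and 5 of 9 in Cx HS21, where 1.14% and 18.9% of all tested genes rose. In OM HS14 0 of 9 and in OM HS21 0 of 10 passed the test, where 0.00694% and 0.639% of all genes rose, and no difference between the tissues is read from this. *Il1b*, a cytokine of activated myeloid cells, rose in Cx HS14 from 2.33 ± 0.245 to 5.78 ± 1.61 CPM (log2 ratio 1.30, SE 0.19, edgeR adjusted *P* = 0.00993) and in Cx HS21 to 9.01 ± 3.67 (1.93, SE 0.28, adjusted *P* = 0.000336). In the OM it went from 3.16 ± 1.54 CPM to 9.52 ± 6.34 at HS14 (adjusted *P* = 0.597) and to 7.67 ± 1.36 at HS21 (adjusted *P* = 0.0904). *Socs3*, a feedback inhibitor induced by STAT3, rose in both Cx comparisons, by log2 ratios of 1.45 (SE 0.27, adjusted *P* = 0.0204) and 1.59 (SE 0.30, adjusted *P* = 0.00159). *Il6r*, the IL-6 receptor, rose by 0.48 (SE 0.10) and 1.03 (SE 0.19). *Osmr*, a receptor for oncostatin M, rose in Cx HS21 by 0.99 (SE 0.23), and *Stat3* by 0.24 (SE 0.07). Other ligands were scarcely counted: *Il6* had 54 counts in all 30 libraries, *Tnf* 68, *Ifng* 69, *Il4* and *Il17a* 5 each, and *Il13* 1.

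Set against lists of markers, *Chi3l1* had a larger log2 ratio than nearly every listed gene of macrophages, T cells and injured tubules. In bulk tissue a change in the number of cells of a type and a change in RNA per cell cannot be told apart. The exceptions were *Clec4e*, a macrophage receptor for damaged cells (4.51, SE 0.46), and *Cd3e*, a T cell receptor chain (3.95, SE 0.59), both in Cx HS21. Of the neutrophil list, *S100a9* also had a larger log2 ratio than *Chi3l1*, in Cx HS14 and Cx HS21. The plot of log2 ratios by list shows *Chi3l1* to the right of the list medians in all 4 comparisons. *Chi3l1* was chosen on these comparisons, so a place above the listed genes was favoured in advance and is a description only.

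Of the macrophage markers, 3 of 17 tested rose in Cx HS14 (median log2 ratio 0.64), 17 of 18 in Cx HS21 (1.62), 0 of 18 in OM HS14 (0.61) and 1 of 18 in OM HS21 (1.25), while the median over all tested genes was −0.03 to 0.00. Of all tested genes, 1.14%, 18.9%, 0.00694% and 0.639% rose in these comparisons. In the tissue by diet interaction at HS21, 0 of 18 macrophage genes passed the test. No difference between the tissues is read from these counts. *Cd68*, a lysosomal protein of macrophages, rose in Cx HS21 from 7.31 ± 2.50 to 23.4 ± 10.2 CPM (log2 ratio 1.66, SE 0.31, edgeR adjusted *P* = 0.00147). *Csf1r*, the receptor for their growth factor, rose by 1.17 (SE 0.14), and *Adgre1*, which encodes F4/80, by 1.57 (SE 0.34). In OM HS21 the log2 ratios of these 3 genes were 1.57, 1.14 and 1.33 with adjusted *P* of 0.0719, 0.147 and 0.101, and the gene that passed was *Itgam*, the integrin CD11b (2.27, SE 0.39, adjusted *P* = 0.0333). The count in Cx HS14 ranged from 1 (without LS replicate 4) to 8 (without HS14 replicate 10), and that in OM HS21 was 0 without LS replicate 1, 3 or 4 or HS21 replicate 11, 12, 14 or 15, and 2 without HS21 replicate 13. DESeq2 called 13 macrophage genes raised in Cx HS14 and 13 in OM HS21.

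Of the T cell markers, 5 of 11 rose in Cx HS14 (median log2 ratio 1.24), 11 of 12 in Cx HS21 (2.62), 0 of 11 in OM HS14 (0.88) and 1 of 13, *Cd2*, in OM HS21 (1.65). The shares of all tested genes that rose were 1.14%, 18.9%, 0.00694% and 0.639%. In the tissue by diet interaction at HS21, 0 of 14 T cell genes passed the test, and no difference between the tissues is read here. *Cd3e* rose in Cx HS14 from 0.354 ± 0.223 to 1.33 ± 0.191 CPM (log2 ratio 1.88, SE 0.35, edgeR adjusted *P* = 0.0227) and reached 5.64 ± 3.95 in Cx HS21. *Cd4* rose in Cx HS14 and Cx HS21, by 0.57 (SE 0.12) and 1.39 (SE 0.25), and *Cd8a* in Cx HS21 by 1.62 (SE 0.25). *Cd28*, the costimulatory receptor, went against the list and fell in Cx HS21, by 1.13 on the log2 scale, from 12.8 CPM to 5.93. The count in Cx HS14 fell to between 1 and 3 without LS replicate 1, 2, 4 or 5 or HS14 replicate 6, 7, 8 or 9, and was 0 with all 15 Cx libraries in the fit. That in OM HS21 was 0 without LS replicate 1, 3, 4 or 5 or HS21 replicate 11, 14 or 15, and 4 without HS21 replicate 13. DESeq2 called 9 T cell genes raised in each of these comparisons.

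Of the tubular injury markers, 3 of 14 rose in Cx HS14 (median log2 ratio 0.35), 11 of 14 in Cx HS21 (1.14), and none of 13 in OM HS14 (0.13) or OM HS21 (0.59). Among all tested genes 1.14%, 18.9%, 0.00694% and 0.639% rose. In the tissue by diet interaction at HS21, 0 of 14 injury genes passed the test, and no difference between the tissues is read here. *Lcn2*, which encodes NGAL, a secreted protein also used as a urinary injury marker, rose in the Cx from 2.28 ± 0.934 CPM to 8.59 ± 3.06 at HS14 (log2 ratio 1.90, SE 0.32, edgeR adjusted *P* = 0.0152) and 17.3 ± 11.5 at HS21 (2.91, SE 0.49, adjusted *P* = 0.000814). In the OM it stood at 11.5 ± 7.61, 15.4 ± 7.14 and 23.9 ± 20.6 CPM, which did not pass the test. *Havcr1*, which encodes KIM-1 of the proximal tubule, was at 4.67 ± 2.90 in Cx LS and 18.5 ± 16.3 CPM in Cx HS21 (log2 ratio 1.96, SE 0.73, adjusted *P* = 0.0509). In OM HS14 the log2 ratio of *Havcr1* was −1.001, the lowest of the 13 tested injury genes, and it did not pass the test. Of these 13 genes 8 had a positive log2 ratio there. *Spp1*, osteopontin, rose in Cx HS21 by 1.70 (SE 0.33, adjusted *P* = 0.00195) and had a log2 ratio of 0.32 (SE 0.49) in OM HS21. When single libraries were left out the count in Cx HS14 was 1 or 2 (1 without LS replicate 2, 4 or 5 or HS14 replicate 6 or 8), that in Cx HS21 was 9 to 13, and that in OM HS21 was 1 without LS replicate 5 or HS21 replicate 13. Over the same Cx HS21 comparison 7 of 8 proximal tubule markers fell (median log2 ratio −0.69), where 20.5% of all tested genes fell. The part of the proximal tubule markers in the other values was not tested.

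Neutrophil markers were sparse, and *S100a8* and *S100a9*, the calprotectin genes, had their highest means at HS14. *S100a8* averaged 0.105 CPM in Cx LS, 3.19 ± 3.60 in Cx HS14 and 1.36 ± 0.694 in Cx HS21, and 0.026, 2.60 ± 2.28 and 0.825 ± 0.479 CPM in the OM. *S100a9* averaged 0.279, 5.60 ± 5.18 and 3.46 ± 1.19 CPM in the Cx and 0.228, 3.90 ± 2.95 and 1.98 ± 1.02 CPM in the OM. Both scattered widely at HS14. The list as a whole did not share this order in the Cx, where its summed level had a median of 35.4 CPM at HS14 and 40.8 at HS21, and 0 of 7 tested genes passed the test between HS14 and HS21. *S100a9* rose in Cx HS14 (log2 ratio 4.28, SE 0.73), Cx HS21 (3.58, SE 0.37) and OM HS21 (3.06, SE 0.46). In Cx HS14 and Cx HS21 these ratios were larger than those of *Chi3l1* (2.35, SE 0.33, and 3.53, SE 0.34). *Csf3r*, the G-CSF receptor, rose in Cx HS14 (1.64, SE 0.30) and Cx HS21 (1.93, SE 0.25). *Mpo*, which encodes a neutrophil granule enzyme, had 4 counts in all 30 libraries. Of the list, 2 of 3 tested genes rose in Cx HS14, 3 of 4 in Cx HS21, 0 of 2 in OM HS14 and 1 of 4 in OM HS21, where 1.14%, 18.9%, 0.00694% and 0.639% of all tested genes rose. The count was 1 in Cx HS14 without LS replicate 4 or 5 or HS14 replicate 8 or 9, 5 in Cx HS21 without any 1 LS library or HS21 replicate 13, 2 in OM HS14 without HS14 replicate 10, and 0 in OM HS21 without LS replicate 1, 3 or 4 or HS21 replicate 11, 14 or 15. DESeq2 called 3 in OM HS21.

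**Figure D2:**
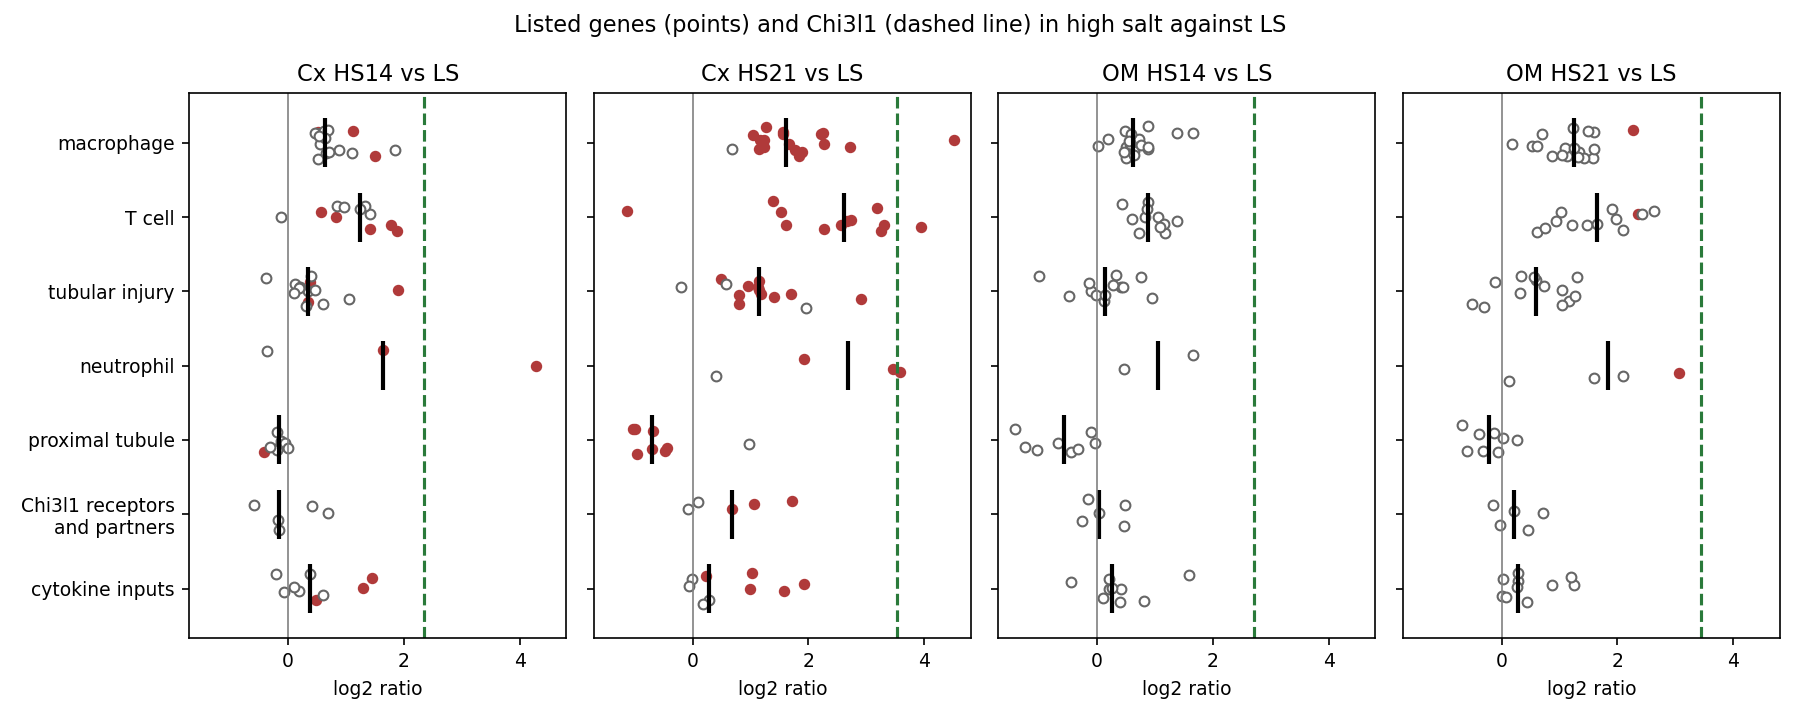
Log2 ratio of high salt to LS for the tested genes of 7 lists in the 4 comparisons. Filled points passed edgeR's test at an adjusted *P* under 0.05, open points did not, black bars are list medians, and the dashed line is *Chi3l1* (2.35, 3.53, 2.72 and 3.45), to the right of each list median. *Chi3l1* was chosen on these comparisons, which favours that place.

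Within diet groups, the libraries with more *Chi3l1* tended to be those with more of these markers, but not beyond the correction for the 7 relations computed. For each library the deviation of *Chi3l1* from its group mean was set against that of the mean log2 CPM of each list (n = 15 libraries a tissue, two-sided exact permutation within groups). In the OM, *r* was 0.62 with the macrophage list (exact permutation *P* = 0.0249), 0.70 with the T cell list (*P* = 0.0100) and 0.64 with the tubular injury list (*P* = 0.0198), each with an adjusted *P* of 0.0580. Spearman's rho was 0.47, 0.60 and 0.42 (permutation *P* = 0.106, 0.0318 and 0.151, adjusted 0.211 for each). In the Cx, *r* was 0.50 (exact permutation *P* = 0.0903), 0.50 (*P* = 0.0916) and 0.53 (*P* = 0.0707), each with an adjusted permutation *P* of 0.0916. There rho was 0.30, 0.29 and 0.45 (permutation *P* = 0.347, 0.367 and 0.137, adjusted 0.367, 0.367 and 0.211).

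These relations rested on a few libraries. Without the 2 libraries farthest from the median of *Chi3l1*, replicates 2 and 13 of the OM, *r* in the OM was 0.25, 0.30 and 0.22. Without replicates 3 and 13 of the Cx, it was 0.40, 0.42 and 0.32 there. Replicate 13 had the lowest summed level of all 3 lists among the HS21 libraries of both tissues, with 566 CPM of macrophage genes in the Cx against 862 to 3591 in the other 4, and 943 in the OM against 969 to 2318. Its *Chi3l1* was the lowest of the HS21 libraries as well, at 5.15 and 4.78 CPM. The highest *Chi3l1* of all, 15.1 CPM in Cx replicate 15, went with the highest macrophage sum (3591 CPM) and the highest T cell sum (227 CPM) of the Cx HS21 libraries, but that library was the third of 5 in tubular injury sum. Other libraries did not follow this order. Replicate 12, the second in *Chi3l1* among the HS21 libraries of both tissues, had the second lowest macrophage and T cell sums, and OM replicate 14, the highest in *Chi3l1* there, was the third in macrophage sum.

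In OM LS the order of the 5 libraries by *Chi3l1* was also their order by macrophage, T cell and injury sums, which was so for all 3 lists in no other of the 6 groups. The sums of the endothelial, receptor and partner, and cytokine lists put the OM LS libraries in the same order. The match was thus not particular to the macrophage, T cell and injury lists. The order rests on 5 to 18 counts of *Chi3l1*, whose counting intervals overlap. Replicate 2, at 0.420 CPM of *Chi3l1*, had 192 CPM of macrophage genes against 458 to 962 in the others, and 18.5 CPM of T cell genes against 34.7 to 70.2. The same library had the most proximal tubule transcripts of the group, 20128 CPM against 3559 to 12179, and the fewest of the thick ascending limb, 10252 CPM against 17094 to 22683. Replicate 5, the highest in *Chi3l1* at 1.15 CPM, had the fewest proximal tubule and the most thick ascending limb transcripts. The part that the share of cortical tissue in the OM samples has in these values was not tested.

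**Figure D3:**
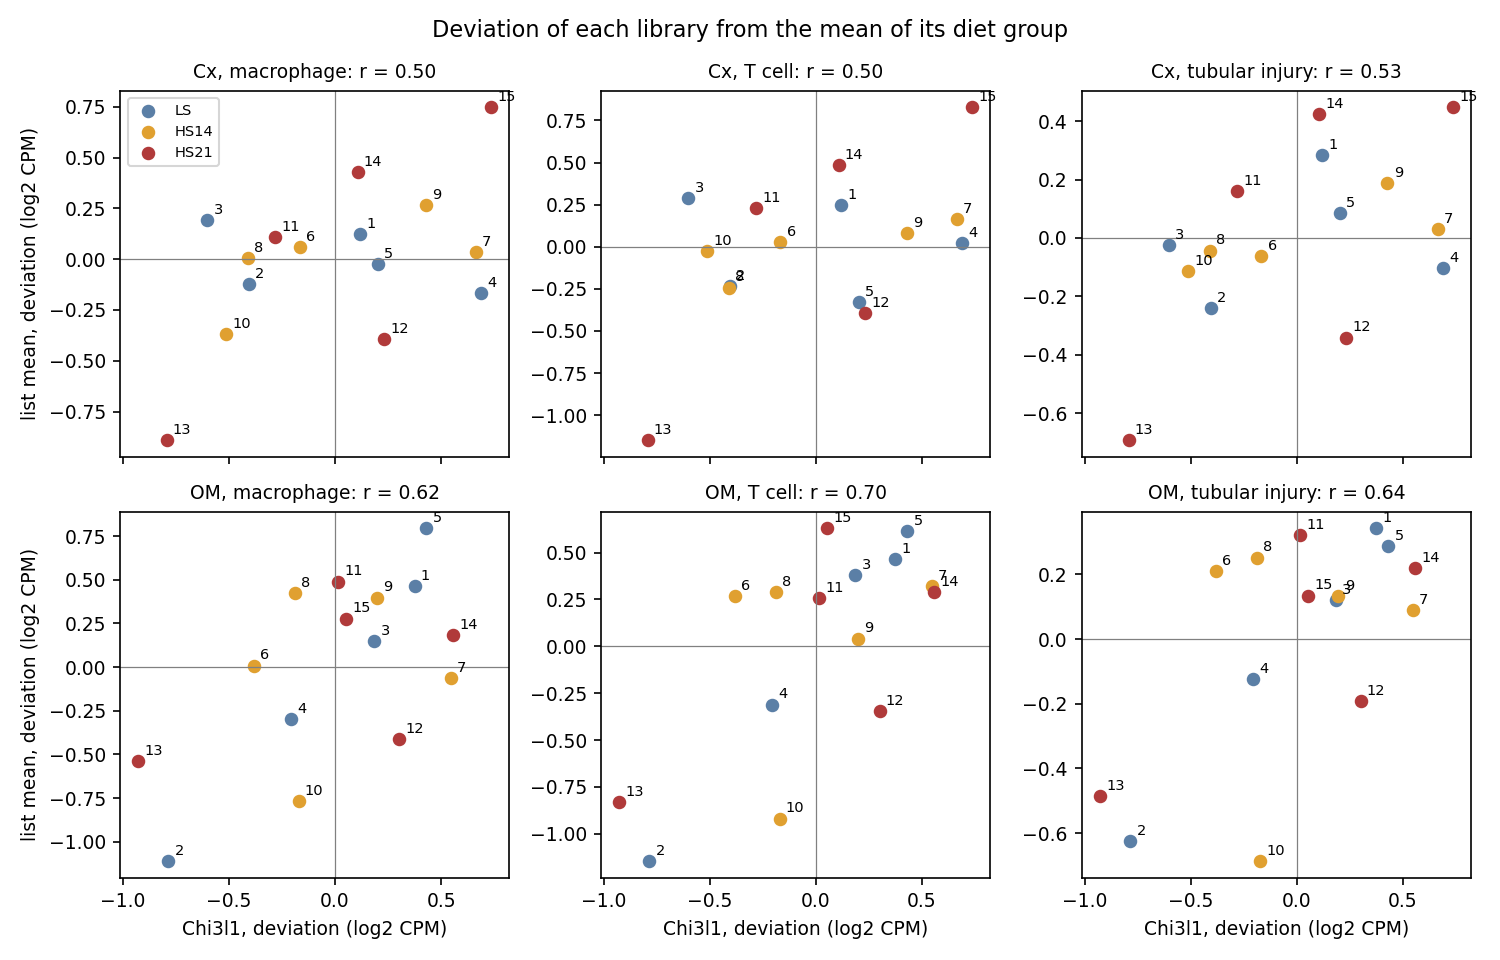
Deviation of each library from the mean of its diet group, for *Chi3l1* (x axis, log2 CPM) and for the mean log2 CPM of 3 marker lists (y axis), in Cx (top) and OM (bottom). Points are libraries with their replicate number, and *r* is 0.50, 0.50 and 0.53 in the Cx and 0.62, 0.70 and 0.64 in the OM, with replicate 13 at the lower left of each panel and replicate 2 beside it in the OM.

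The genes whose levels went most alike with *Chi3l1* were leukocyte genes. Likeness was measured as Pearson's *r* of log2 CPM over the 30 libraries after the mean of each tissue was subtracted, over 13534 candidates (protein coding, mean level 1 CPM or more). The diet groups and the library depth are shared by all points, so *r* describes the pattern and is not tested. It was highest for *Spn* (CD43, 0.953), *Il1rn* (the IL-1 receptor antagonist, 0.949), *Fgr* (a Src-family kinase of myeloid cells, 0.940) and *Ptprc* (CD45, carried by all leukocytes, 0.921). *Pik3r5* (0.918), *Rasal3* (0.918), *Myo1g* (0.917), *P2ry10* (0.911) and *Itgam* (0.908) were among those that followed, while the median over all genes was −0.01. These 9 genes were called raised in Cx HS21 and OM HS21, 8 of 9 in Cx HS14 (all but *P2ry10*) and none in OM HS14, as a ranking that counts the diet change would favour. The shares of all tested genes called raised were 18.9%, 0.639%, 1.14% and 0.00694%, the last being *Chi3l1* alone.

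*Spn* stood at 14.4 ± 2.33, 25.6 ± 3.59 and 40.9 ± 9.12 CPM in Cx LS, HS14 and HS21 and at 11.9 ± 3.22, 30.4 ± 3.43 and 37.6 ± 6.41 CPM in the OM. Its log2 ratios to LS were 0.81 (SE 0.13), 1.49 (SE 0.16), 1.35 (SE 0.20) and 1.64 (SE 0.21), each smaller than that of *Chi3l1* in the same comparison. *Il1rn* rose from 1.13 ± 0.372 CPM in Cx LS to 3.89 ± 1.22 in Cx HS14 and 8.57 ± 3.35 in Cx HS21, with log2 ratios of 1.76 (SE 0.29) and 2.90 (SE 0.33). In the OM it stood at 1.88 ± 0.928, 5.16 ± 1.57 and 8.17 ± 1.78 CPM.

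**Figure D4:**
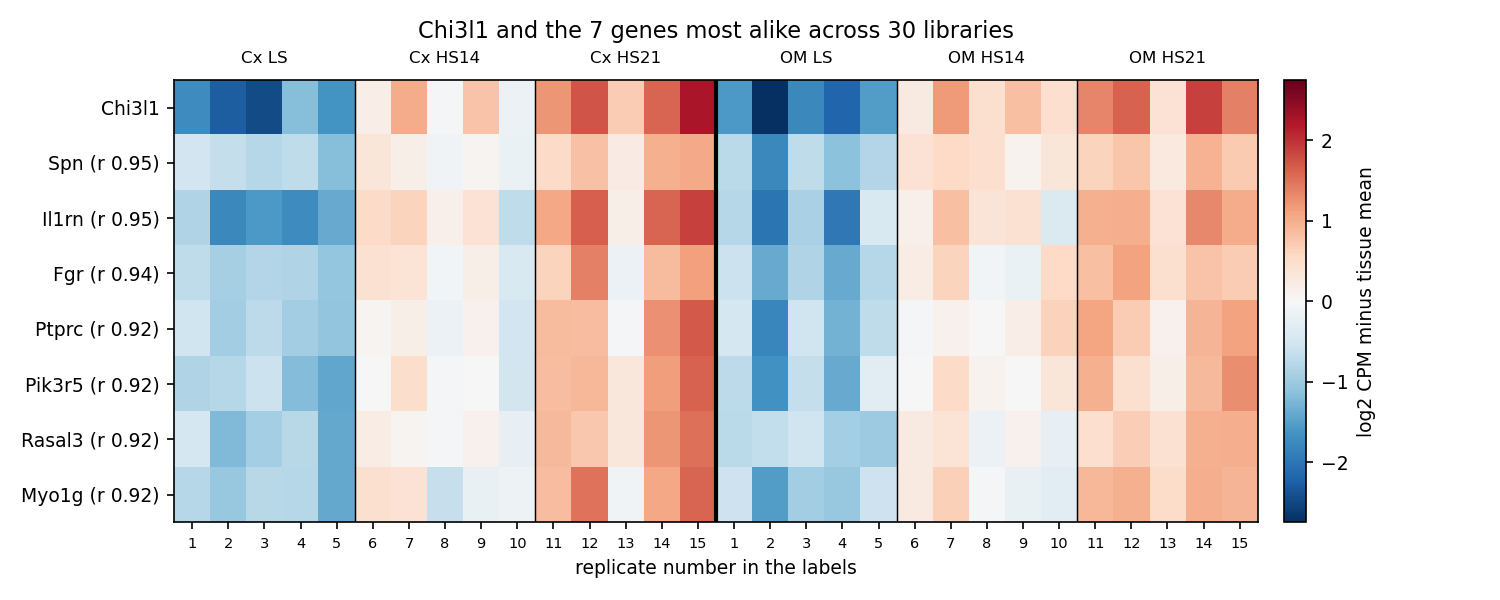
Log2 CPM minus the tissue mean (colour) of *Chi3l1* and the 7 genes most alike, in each of the 30 libraries, grouped by tissue and diet. All 8 genes are low on LS and high at HS21, *r* is 0.917 to 0.953, and replicate 13 is the lowest HS21 library in each row and tissue.

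After the mean of each diet group was subtracted as well, so that the diet change itself no longer counted, the genes with high *r* included *Zc3h12d* (0.776), *Il1rn* (0.748), *Trem3* (a myeloid receptor, 0.743) and *Irg1* (the itaconate-forming enzyme of activated macrophages, 0.711), against a median of 0.01 over all genes. *Il1rn* was named by both rankings. *Irg1* had no count in Cx LS and averaged 5.91 ± 5.71 CPM in Cx HS21 (0.412 to 14.98) and 3.31 ± 2.35 CPM in OM HS21.

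No gene near *Chi3l1* reached its log2 ratio in any of the 4 comparisons, as the choice of *Chi3l1* on these comparisons would favour. Within 200 kb lie 10 genes, none of which overlaps it, and 8 were tested. In Cx HS21 4 of them rose and 1 fell, where 18.9% and 20.5% of all genes did. *Mybph*, a myosin-binding protein 3.45 kb away on the same strand, rose by a log2 ratio of 0.84 (SE 0.24, edgeR adjusted *P* = 0.0177), and *Adora1*, the adenosine A1 receptor, by 0.48 (SE 0.16, adjusted *P* = 0.0306). *Ppfia4* rose by 0.51 (SE 0.16), *Cyb5r1* by 0.37 (SE 0.11), and *Tmem183a* fell by 0.39 on the log2 scale (SE 0.07). In the other 3 comparisons none of the 8 passed the test, with log2 ratios from −0.75 to 0.74 and the lowest adjusted *P* at 0.149. *Fmod* and *Btg2*, on the other side of *Chit1*, passed in none of the 4, and *Myog* and *LOC289035* had 11 and 32 counts in all 30 libraries. On LS the 4 neighbours raised in Cx HS21 were higher in OM than in Cx, by log2 ratios from 1.25 to 3.27. Each passed edgeR's test, as did *Btg2* (1.36), while *Tmem183a* did not (−0.36). Of all tested genes 21.3% were higher there. The median thick ascending limb sum was 1845 CPM in Cx LS and 2867 in Cx HS21. The part of tissue make-up in the Cx HS21 changes of these neighbours was not tested.

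**Figure D5:**
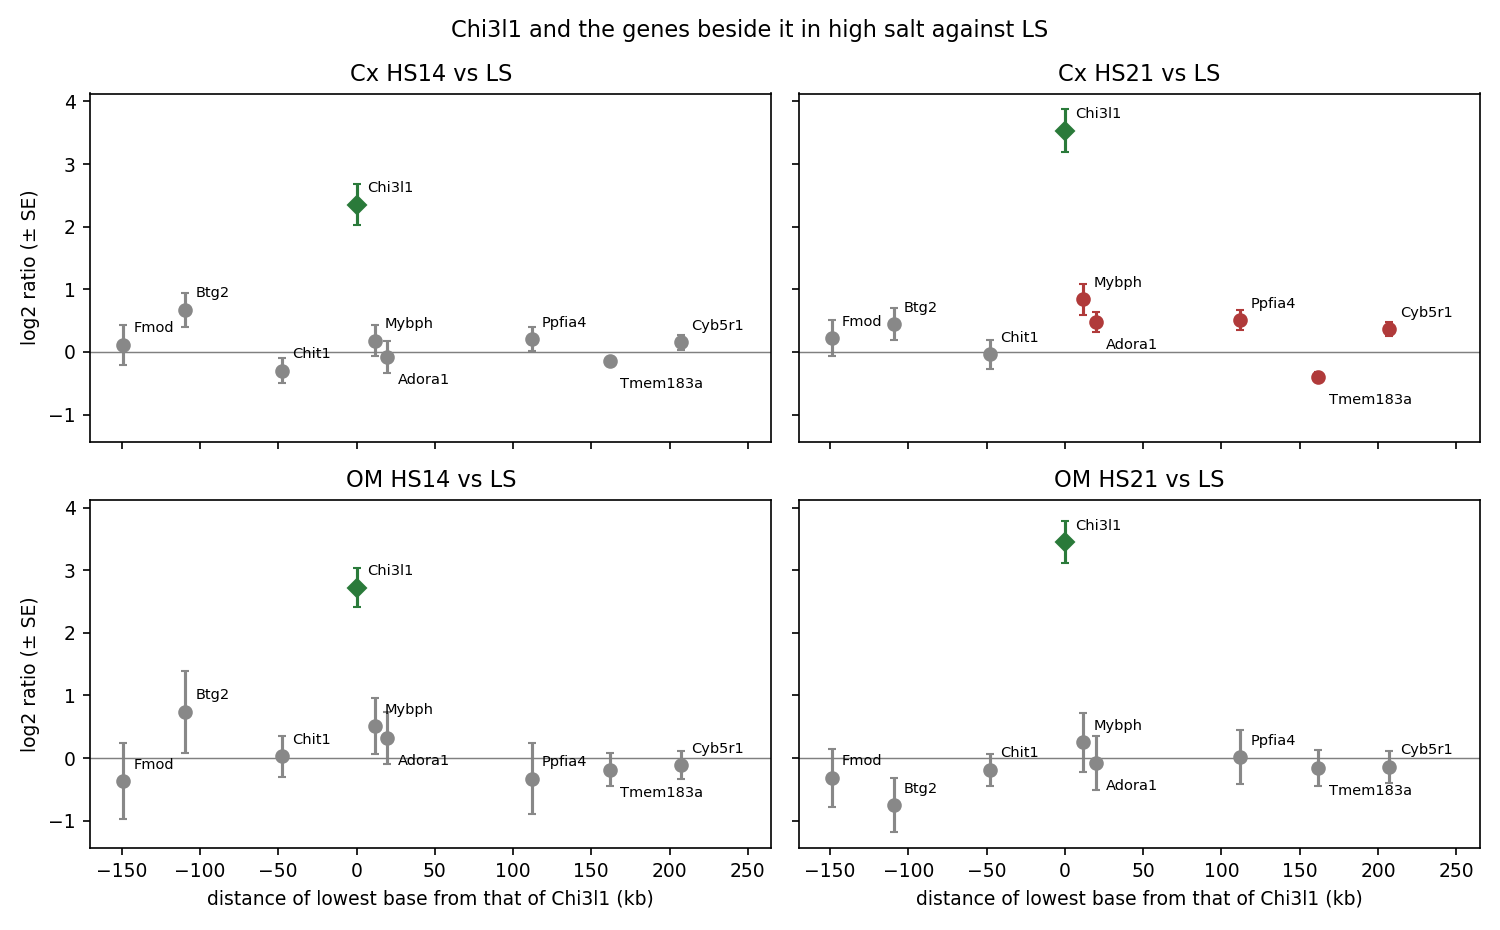
Log2 ratio of high salt to LS (± SE) of *Chi3l1* (diamond) and its tested neighbours, by the distance of their lowest base from that of *Chi3l1* in kb. Red points passed edgeR's test and grey points did not, and the neighbours lie between −0.75 and 0.84 while *Chi3l1* lies between 2.35 and 3.53.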

How the data were processed

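From 30 poly(A)-selected libraries that do not keep the strand, the authors aligned reads to Ensembl Rnor_6.0 with Hisat2 (2.0.5) and counted them per gene with featureCounts (1.5.0-p3), with StringTie (1.3.3b) also named in the processing notes. The authors deposited whole-number counts, which were tested here, and FPKM, used here only for levels per gene length. The gene length in bases is the authors' value. The authors' fold change, p-value and group mean columns were not used. Groups followed the labels. Genes were filtered by filterByExpr, scaled by TMM and tested with edgeR 4.0.16 (quasi-likelihood F-test, Benjamini-Hochberg over all tested genes, 0.05) in R 4.3.3, from the 10 libraries compared (20 for the interaction), without covariates. DESeq2 1.42.0 was an alternative, as were other scalings, no low-count filter and leaving out each library. *P* values measure the spread between libraries, which the labels do not tie to separate rats. The authors' methods give n = 5 kidneys per group, divided into both tissues, without saying how these were numbered. Log2 CPM used a prior count of 2. Relations within groups were tested by enumerating all 1728000 rearrangements (scipy 1.17.1). The tests were tried on simulated data.

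Library totals were 5408126 to 21842843 counts, lowest in replicate 10 of OM HS14. Intervals of counts are exact Poisson (95%) and cover counting error only. No library was a copy of another: over 60 pairs from the same group the lowest chi-square per gene was 7.29.

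*Chi3l1* and the gene lists (135 symbols, 131 found, *Chil4*, *Jchain*, *Ovgp1* and *Pecam1* not) were chosen with earlier results of these data known. *Tnf* has 2 entries in the table, of which the first was used. Named are the listed chitinase, receptor and cytokine genes, all genes within 200 kb, the defining macrophage, T cell, injury and neutrophil markers with the gene of each list that changed most in Cx HS21, the 10 genes most alike after subtraction of the tissue means and the 5 after subtraction of the group means (1 of each is not reported here). *C7*, *Entpd2*, *Itgam*, *Cd2*, *Cd28* and the other genes named in the closing observations were chosen after their values were seen. Upstream bases came from RefSeq (GRCr8), and no coordinates were converted between builds. Protein sequences were not used here.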

Additional observations from a re-analysis of the deposited data

Results flagged for a closer look

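In OM HS14, replicate 10 stood apart from the other 4 libraries in 2 marker levels. Its mean log2 CPM of the T cell list was 0.78, against 1.74 to 2.02 in the others, a gap of 0.774 of the group's range. Its mean of the tubular injury list was 4.28 against 5.06 to 5.22, a gap of 0.828. The critical value for 5 samples is 0.71, 24 groups were examined, and chance passes it in about 1 in 20. This library is also the shallowest, with 5408126 counts. In the authors' mapping summary it had the lowest share of mapped reads and of exonic bases of all libraries, and the highest share of intronic bases. The part of library quality in its marker levels was not tested. Its *Chi3l1*, 4.99 CPM from 29 counts, was the median of its group, and no group of *Chi3l1* values held a sample apart by this measure.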

How the results depend on the processing

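Of 325 alternative values of the *Chi3l1* results, 285 kept their direction and, where a test was given, their side of the threshold. The comparisons with LS carry no test of *Chi3l1* here and were judged by direction alone. A call lost in them, as in OM HS14, is therefore not counted as a change. Under total-count scaling the within-group *r* in the OM became 0.69 (macrophage), 0.74 (T cell) and 0.70 (tubular injury), each with an adjusted *P* of 0.0305. With a prior count of 0.5 it became 0.65, 0.71 and 0.63 (adjusted *P* 0.0470 for each). Over all alternatives other than single libraries these adjusted *P* ran from 0.0305 to 0.574. Why they cross the threshold was not tested.

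Leaving out single libraries gave ranges of the log2 ratio of 2.16 to 2.58 in Cx HS14, 3.32 to 3.76 in Cx HS21, 0.96 to 1.37 for Cx HS21 against HS14 (5 of 10 fits lost the call), 3.29 to 3.63 in OM HS21 and 0.58 to 0.90 for OM HS21 against HS14. OM against Cx ranged from −0.072 to 0.31 at LS and from −0.13 to 0.26 at HS21, and the interaction at HS21 from −0.31 to 0.13, so none of these has a fixed sign. OM against Cx at HS14 ranged from 0.26 to 0.61 and the interaction at HS14 from 0.10 to 0.53. Without single numbers *r* ranged from 0.27 to 0.62, 0.24 to 0.62 and 0.31 to 0.63 in the Cx and from 0.44 to 0.70, 0.57 to 0.77 and 0.49 to 0.72 in the OM, where the adjusted *P* fell to 0.0243 at the lowest.

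The equal replicate numbers of Cx and OM were not taken as pairs, since no label says that they are 1 rat and a correlation of deviations over 0.1 was required of every pair, which 12 of 15 had (−0.082 to 0.51). As a hint from the data, 13 of 15 correlated best with their own number. With the replicate number as a block (replicate block), OM against Cx was 0.098 at LS, 0.49 at HS14 (SE 0.20, edgeR unadjusted *P* = 0.0421, adjusted 0.122) and 0.047 at HS21, the interaction was 0.36 at HS14 and −0.085 at HS21, and no *Chi3l1* call changed.

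Called genes (raised and lowered) moved by over 1.5 times in Cx HS14 (162 and 168, with DESeq2 492 and 429, with all 15 libraries 83 and 143), OM HS21 (93 and 19, with DESeq2 535 and 166, with total counts 35 and 9, with all 15 libraries 179 and 20), Cx HS21 against HS14 (935 and 1395, with DESeq2 1475 and 1790, with total counts 2084 and 644, with all 15 libraries 1500 and 1905) and the interaction at HS21 (68 and 33, with DESeq2 350 and 206, without the low-count filter 48 and 10). In OM HS14 the 1 raised gene became 0 under total counts or without the filter and 2 with all 15 libraries. Without single libraries the raised genes ranged from 42 to 274 in Cx HS14, from 337 to 1476 for Cx HS21 against HS14 and from 9 to 159 in OM HS21, and the interaction at HS21 had 34 to 729 higher and 4 to 546 lower genes (729 and 546 without OM LS replicate 2). Of 240 alternative counts of raised list genes, 171 stayed within 1.5 times. With all 15 libraries in the fit the T cell count was 0 in Cx HS14 and 6 in OM HS21, and with total counts the macrophage and T cell counts in OM HS21 were 0. Depth limits the LS values of *Chi3l1*, which rest on 5 to 18 counts.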

Other observations

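*Chi3l1* in the Cx and in the OM library of the same replicate number deviated from their group means in a like direction (*r* = 0.57, n = 15 numbers, exact permutation *P* = 0.0478, adjusted over the 7 relations 0.0836, rho = 0.45, *P* = 0.123). Without numbers 3 and 13 *r* was 0.51 (exact permutation *P* = 0.110). Whether equal numbers are the same rat is not stated.

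Markers of other cell types moved less evenly than those of macrophages and T cells. Of 5 tested dendritic cell markers 4 rose in Cx HS21, namely *Clec9a*, *Flt3*, *Itgax* and *Xcr1*, and of 4 tested in OM HS21 *Itgax* rose. Of all tested genes 18.9% and 0.639% rose there. Of the thick ascending limb markers, *Umod*, *Slc12a1* and *Kcnj1* rose and *Cldn10* fell in Cx HS21. Of 7 fibroblast markers *Dcn* rose there, and of 6 endothelial markers *Emcn* and *Tek* did, where 18.9% of all tested genes rose. None of the B cell markers had enough counts to be tested in the Cx.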
